A study of Homo sapiens with 6 samples.

Results

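The 10 genes described here encode B-MYB (MYBL2), its relative A-MYB (MYBL1), the forkhead factor FOXM1, the 5 proteins of the MuvB core (LIN9, LIN37, LIN52, LIN54 and RBBP4) and the pocket proteins p107 (RBL1) and p130 (RBL2). They were chosen by name, as members of the DREAM complex and of its activating counterparts, and all 10 were found among the 33707 genes of the table. The set was proposed after the low values of MYBL2 and FOXM1 in the mimic libraries were known, so the values of these genes are given as a description and those of MYBL2 and FOXM1 without a test. Messenger RNA of Huh7, an established human hepatocellular carcinoma line, had been sequenced at day 2 in 3 libraries with miR-361-3p mimics, a synthetic microRNA, and in 3 libraries with mimics-NC, its negative control. Both groups received their mimic with the same lipid reagent and carry no other labelled change. The cell line tag of the third mimic library reads Huh8 and the treatment tag of the control libraries reads wild type, against titles that name Huh7 and mimics-NC, and the libraries were grouped by their titles. The labels leave unsaid if the replicates came from different cultures. P-values here therefore cover only the spread among these libraries, and that spread may be technical.

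The MuvB core is a protein module that binds the promoters of cell cycle genes and changes partners through the cycle. With p130 or p107, E2F4 or E2F5 and a DP protein it forms DREAM, which holds cell cycle genes silent in resting cells. In proliferating cells the same core joins B-MYB, and later FOXM1, and then helps to switch on the genes of G2 and mitosis. B-MYB and FOXM1 are themselves products of cell cycle genes, are known to be abundant in dividing tumour cells including hepatocellular carcinoma, and are low in resting liver.

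The libraries held 35020139 to 44774192 reads assigned to genes with the mimics and 42196419 to 52977132 with mimics-NC. Values are RPKM, a read count scaled to the exon length of the gene in kilobases and to 1000000 assigned reads. The 10 genes were above 0 in every library, and all 10 passed the filter for testing, a mean of at least 1 RPKM. The thinnest value rested on 121 reads, for LIN37 in a mimic library, and the thickest on 19213, for MYBL2 in a control library. Of 11 hepatocyte markers, 9 were at 30 RPKM or more in every library, while TTR and AFP, a fetal liver protein known to be made by Huh7, were under 2 RPKM throughout. Their summed level was 4012 to 4136 RPKM with the mimics and 4233 to 4338 RPKM with mimics-NC, and 0 of the 10 tested passed (0 higher and 2 lower at an unadjusted p under 0.05 by limma, and 1 higher and 2 lower by voom). Of 9 markers of immune, endothelial, fibroblast and bile duct cells, 7 were under 2 RPKM throughout, and CD68 and PECAM1 were above that. The summed level of those 9, most of it from CD68, was 40.8 to 44.0 RPKM with the mimics and 42.2 to 43.8 RPKM with mimics-NC.

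A microRNA pairs with messenger RNAs mainly through its seed, bases 2 to 8, and the transcripts of the 10 genes were searched for the complement of the miR-361-3p seed. The mature sequence (RefSeq, GRCh38.p14, chrX:85903641-85903663, minus strand) is shown with the seed in capitals, because it defines the sites. The sites searched were CTGGGGG (7mer-m8), TGGGGGA (7mer-A1) and both joined (8mer), on the sense strand of the longest complete protein-coding transcript of each gene in GENCODE 29. It was assumed and not checked that the mimic has this sequence.
hsa-miR-361-3p: uCCCCCAGgugugauucugauuu
MYBL2, 3' UTR: ccctgcttaggaTGGGGGAtg
FOXM1, coding sequence: cctcatcagctgTGGGGGAgc
RBBP4, 3' UTR: ctggtaaaacatTGGGGGAgg
The lines for the genes show each 7mer-A1 match in capitals within 21 bases of the transcript. The MYBL2 match (GRCh38, chr20:43716403-43716409, plus strand) lies in exon 13 of 13, 316 bases after the stop codon in a 3' UTR of 408 bases. The FOXM1 match (chr12:2874140-2874146, minus strand) lies in the coding part of exon 2 of 8. The RBBP4 match (chr1:32682923-32682929, plus strand) lies in exon 12 of 12, 3218 bases after the stop codon. RBBP4 also held 1 CTGGGGG in its 5' UTR. The other 7 genes held none of these letters in the transcript searched. A 3' UTR match was thus present in 2 of the 10 genes, while 25.4% of the 9574 protein-coding genes tested and found in the annotation held 1 or more. A match in the coding sequence was present in 1 of the 10 genes and in 24.5% of those 9574.

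Promoters of 8 of the 10 genes were in the RefSeq table (GRCh38.p14), each as 250 bases before and 50 after a start site. These windows were searched on both strands for E2F-type letters (the string TTGGCGC, the string TTGCCGC, the string TTCGCGC or the string TTCCCGC), the cell cycle homology region bound by LIN54 (TTTGAA or TTTAAA), MYB-type letters (AACGG) and forkhead letters (TAAACA). The E2F-type letters were in 13.0% of all 35116 promoters, the homology region in 24.0%, the MYB-type letters in 19.7% and the forkhead letters in 12.3%. Promoters of 3 genes are shown, 1 of a transcription factor, 1 of a core subunit and 1 of a pocket protein, with every match in capitals.
MYBL2: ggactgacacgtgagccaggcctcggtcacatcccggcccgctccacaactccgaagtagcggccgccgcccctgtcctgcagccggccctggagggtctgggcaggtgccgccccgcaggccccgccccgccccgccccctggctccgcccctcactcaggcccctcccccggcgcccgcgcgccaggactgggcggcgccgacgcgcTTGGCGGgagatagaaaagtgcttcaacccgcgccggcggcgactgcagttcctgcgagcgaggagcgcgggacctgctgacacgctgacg
LIN52: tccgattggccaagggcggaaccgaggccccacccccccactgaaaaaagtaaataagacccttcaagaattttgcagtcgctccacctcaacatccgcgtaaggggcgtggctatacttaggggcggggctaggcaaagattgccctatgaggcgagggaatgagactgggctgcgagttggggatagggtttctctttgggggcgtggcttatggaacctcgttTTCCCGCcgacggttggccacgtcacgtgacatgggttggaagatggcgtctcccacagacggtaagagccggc
RBL1: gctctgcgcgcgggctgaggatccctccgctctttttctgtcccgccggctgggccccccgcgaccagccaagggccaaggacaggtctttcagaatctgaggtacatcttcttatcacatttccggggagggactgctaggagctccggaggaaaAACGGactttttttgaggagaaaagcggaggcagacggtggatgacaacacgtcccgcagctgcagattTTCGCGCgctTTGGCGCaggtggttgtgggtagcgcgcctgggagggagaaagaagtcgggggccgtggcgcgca
The MYBL2 window (chr20:43666864-43667163, plus strand) held none of the letters searched. It held TTGGCGG at position -41 from the start site, a further E2F-type string that is in 3.43% of all promoters. That string was added after this sequence had been seen. LIN54, which did not pass the test, also held it, at -92 and -81 in its 2 windows. The LIN52 window (chr14:74084706-74085005, plus strand) held TTCCCGC at position -24. The RBL1 window (chr20:37095948-37096247, minus strand) held TTCGCGC at -25, TTGGCGC at -15 and AACGG at -94. Of the 8 genes, 4 held E2F-type letters from the first list in at least 1 window, LIN9 and LIN52, which fell, and RBBP4 and RBL1, which did not pass the test. The homology region was in a window of 4, LIN9, LIN37, LIN54 and RBL2. MYB-type letters were in a window of 3, LIN9, RBL1 and RBL2, and forkhead letters in a window of 1, RBL2. These counts are per gene, each with 1 to 3 windows, while the shares above are per promoter, so they are not directly comparable.

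MYBL2, the B-MYB partner of MuvB in proliferating cells, was the most abundant of the 10 genes and the one with the lowest log2 fold change (GRCh38, chromosome 20, 43667019 to 43716496). It measured 54.5, 50.7 and 50.5 RPKM in the mimic libraries, against 134, 130.6 and 130.9 RPKM in the mimics-NC libraries. The groups lay far apart, and the 3 libraries of each were close to each other, with a coefficient of variation of 4.43% with the mimics and 1.41% with mimics-NC. The mimic mean was 39.4% of the mimics-NC mean, and the log2 fold change was -1.34 ± 0.0399 (SE) on the log2(RPKM + 0.5) scale of the fit. That was the second lowest of the 13158 genes tested. In a bulk library, fewer cells in the cycle phase that expresses a gene and less of its RNA per cell cannot be told apart.

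MYBL1 encodes A-MYB, a factor of the same family best known from spermatogenesis, and it was present in Huh7 at a lower level than MYBL2 (chromosome 8, 66562175 to 66614247). It measured 6.62, 5.92 and 7.03 RPKM in the mimic libraries, against 10.4, 10.8 and 11.1 RPKM in the mimics-NC libraries. The highest mimic library stayed below the lowest control library. Its log2 fold change was -0.68 ± 0.0644 (SE), with an adjusted p of 0.000807 by limma over all genes, and the mimic mean was 60.6% of the mimics-NC mean.

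FOXM1, the forkhead factor that joins MuvB and B-MYB at mitotic genes, was lower with the mimics by a similar factor (chromosome 12, 2857681 to 2877155). It measured 5.88, 5.40 and 5.55 RPKM in the mimic libraries, against 9.62, 8.88 and 8.86 RPKM in the mimics-NC libraries. The groups did not overlap, and the mimic mean was 61.5% of the mimics-NC mean. The log2 fold change was -0.65 ± 0.0512 (SE), within 1 SE of that of MYBL1. Of the exon bases of FOXM1, 15.9% also belong to ITFG2 on the opposite strand, which measured 2.36 to 2.63 RPKM with the mimics and 2.81 to 2.85 RPKM with mimics-NC (adjusted p = 0.0827 by limma). How reads of the shared stretch were assigned was not tested.

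**Figure D1:**
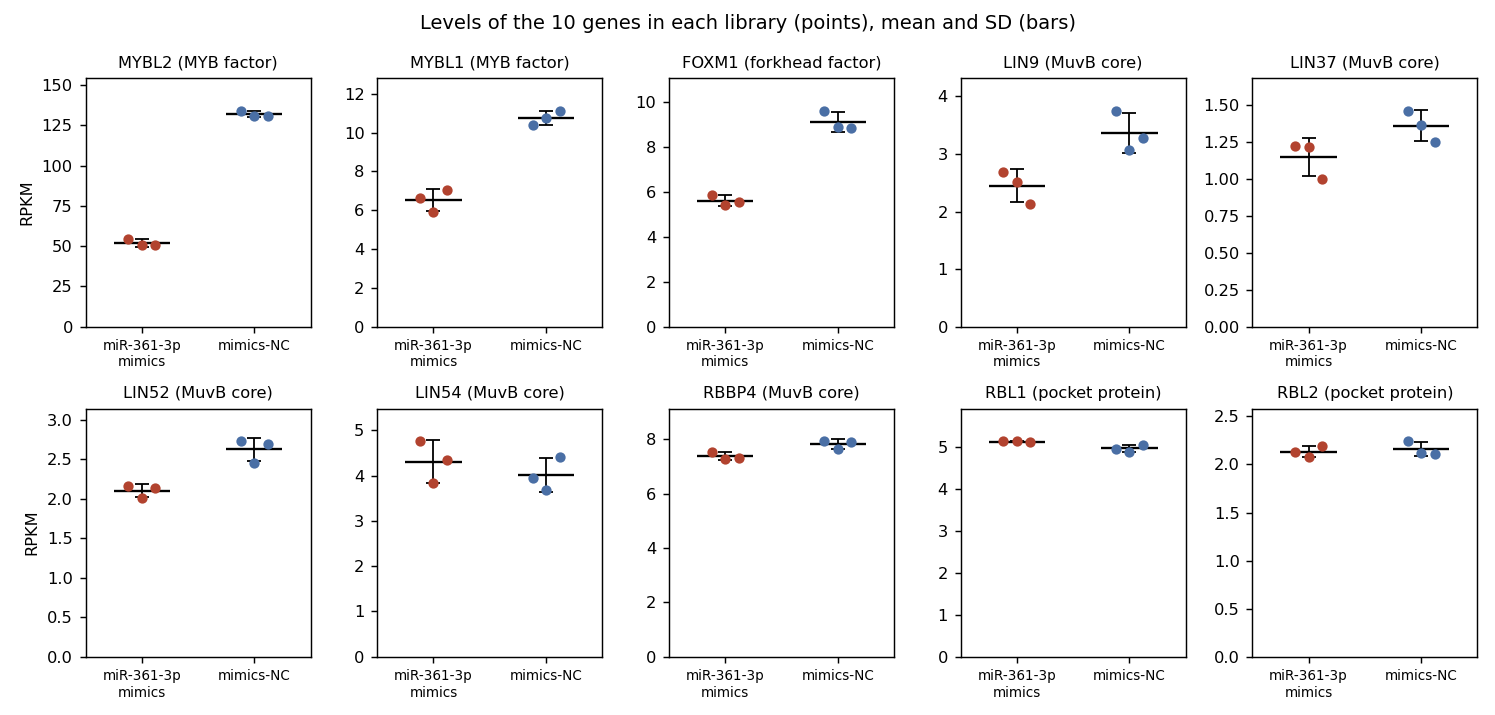
RPKM of each of the 10 genes in the 3 libraries with miR-361-3p mimics (left in each panel) and the 3 with mimics-NC (right). Points are libraries, the horizontal line is the mean and the bar is the SD; each panel has its own axis from 0. MYBL2 averaged 51.9 RPKM with the mimics and 132 RPKM with mimics-NC, and the points of LIN54 and RBL2 overlap between groups.

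Within the MuvB core, 2 of 5 genes fell, LIN9 and LIN52, and 3 did not pass the test, while 9.85% of all genes tested were lower. LIN9 encodes the subunit that, with LIN52, contacts B-MYB (chromosome 1, 226231149 to 226309869). It measured 2.69, 2.52 and 2.13 RPKM in the mimic libraries, against 3.75, 3.08 and 3.27 RPKM in the mimics-NC libraries. The groups did not overlap, although the libraries of each were spread more widely than for MYBL2. The log2 fold change was -0.39 ± 0.0950 (SE), with an adjusted p of 0.0272 by limma.

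LIN52, the subunit whose phosphorylation by DYRK1A favours binding to the pocket proteins, gave a smaller difference (chromosome 14, 74084796 to 74201235). It measured 2.17, 2.01 and 2.13 RPKM in the mimic libraries, against 2.73, 2.46 and 2.69 RPKM in the mimics-NC libraries. All 3 mimic libraries lay below all 3 control libraries, with a log2 fold change of -0.26 ± 0.0605 (SE) and an adjusted p of 0.0228 by limma. The calls of LIN9 and LIN52 both lay near the threshold. Each was lost without mimic replicate 2 or 3, or without mimics-NC replicate 1 or 3. In those fits the adjusted p of LIN9 was 0.0600 to 0.0697 and that of LIN52 was 0.0596 to 0.0755, with the direction kept. With any 1 library left out, 885 to 990 of all genes passed as lower, against 1296 with every library included.

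RBBP4, a histone-binding protein also known as RbAp48 and shared with several other chromatin complexes, is the most abundant core gene (chromosome 1, 32651142 to 32686211). It measured 7.54, 7.28 and 7.33 RPKM in the mimic libraries, against 7.94, 7.63 and 7.92 RPKM in the mimics-NC libraries. The groups lay side by side without overlap, but the difference of -0.08 on the log2 scale (95% interval -0.17 to 0.01) did not pass (adjusted p = 0.188 by limma). The table also lists 4 pseudogene copies of RBBP4, at 0 to 0.0895 RPKM, with which its reads could be shared, and SYNC on the opposite strand overlaps 18.0% of its exon bases.

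LIN37, a core subunit needed for repression by DREAM, is the lowest of the 10 (chromosome 19, 35748361 to 35754519). It measured 1.23, 1.22 and 0.999 RPKM in the mimic libraries, against 1.46, 1.37 and 1.25 RPKM in the mimics-NC libraries. The mimic values were the lower ones, with a narrow gap between the groups, and the difference of -0.18 (95% interval -0.38 to 0.03) did not pass (adjusted p = 0.201). Its exons share 41.8% of their bases with the opposite-strand gene AC002398.11 and 26.7% with AC002398.9 on the same strand. AC002398.9 measured 10.1 to 11.8 RPKM with the mimics and 12.2 to 12.4 RPKM with mimics-NC (adjusted p = 0.101).

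LIN54, the subunit that binds the cell cycle homology region in DNA, was no lower with the mimics (chromosome 4, 82909973 to 83012926). It measured 4.76, 3.83 and 4.34 RPKM in the mimic libraries, against 3.95, 3.67 and 4.42 RPKM in the mimics-NC libraries. The groups overlapped, and the log2 difference of 0.09 had a 95% interval of -0.12 to 0.30 (adjusted p = 0.512). A fall as deep as that of LIN9 lies outside this interval.

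The pocket proteins gave no difference past the test. RBL1, p107, a DREAM subunit that is itself a cell cycle gene (chromosome 20, 36996349 to 37095995), measured 5.15, 5.15 and 5.12 RPKM in the mimic libraries, against 4.97, 4.90 and 5.06 RPKM in the mimics-NC libraries. The mimic values were slightly higher and did not overlap the controls, and the log2 difference was 0.04 (95% interval -0.05 to 0.14, adjusted p = 0.478 by limma). RBL2, p130, the main pocket protein of DREAM in resting cells (chromosome 16, 53433977 to 53491649), measured 2.13, 2.07 and 2.19 RPKM in the mimic libraries, against 2.24, 2.12 and 2.11 RPKM in the mimics-NC libraries. These values overlapped, with a log2 difference of -0.01 (95% interval -0.14 to 0.12, adjusted p = 0.883). RBL1 and MYBL2 lie on the same chromosome and differed in this way.

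**Figure D2:**
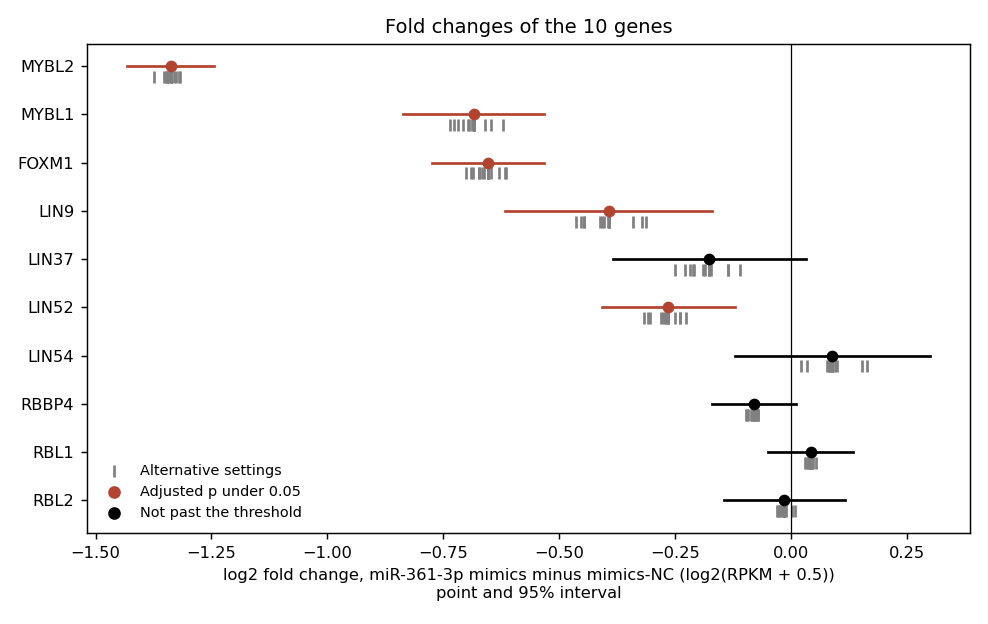
Log2 fold change of each gene, miR-361-3p mimics minus mimics-NC, as a point with its 95% interval (red past an adjusted p of 0.05, black not). For MYBL2 and FOXM1, whose values led to the choice of the set, the colour is not read as a test. Grey ticks are the values under the alternative settings; those of MYBL2 lie between -1.37 and -1.32, and those of RBL2 lie on both sides of 0.

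Apart from MYBL2 and FOXM1, whose values led to the choice of the set, 3 of the other 8 genes fell (MYBL1, LIN9 and LIN52) and 0 rose by limma, with 0 higher at an unadjusted p under 0.05 and 0 by voom. Of all 13158 genes tested, 21.5% passed, 9.85% as lower and 11.7% as higher. The groups did not overlap for 6 of these 8 genes, with the mimics lower in 5 and higher in 1, RBL1, while 41.4% of all genes tested had groups apart. The median log2 fold change was -0.13 over the 8 genes, -0.22 with MYBL2 and FOXM1 included and 0.01 over all genes. Since the 8 were also chosen with results known, these shares are set side by side as a description.

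Set against the MuvB core in the same library, the activating partners were lower with the mimics. The ratios to the core largely restate the low values of MYBL2 and FOXM1, which led to the choice of the set. The ratio of MYBL2 to the mean RPKM of the 5 core genes was 14.8, 15.0 and 14.9 in the mimic libraries, against 33.8, 35.9 and 33.5 in the mimics-NC libraries. These ratios varied little within a group, and the mimic mean was 0.434 of the mimics-NC mean. The ratio of FOXM1 to the core mean was 1.60, 1.60 and 1.64 with the mimics, against 2.42, 2.44 and 2.27 with mimics-NC. The core mean itself was 3.37 to 3.68 RPKM with the mimics and 3.64 to 3.97 RPKM with mimics-NC, and these ranges overlapped. RBBP4 and LIN54, which did not pass the test, are the most abundant core genes and weigh most in this mean. LIN9 and LIN52, which fell, weigh less, so the mean does not show each core gene as steady. The ratio of MYBL2 to MYBL1 was 7.99 ± 0.722 with the mimics and 12.3 ± 0.585 with mimics-NC (SD, n = 3 each), and the groups did not overlap. The ratio of RBL1 to RBL2 was 2.41 ± 0.0727 with the mimics and 2.31 ± 0.0923 with mimics-NC (SD, n = 3 each), and its values overlapped.

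**Figure D3:**
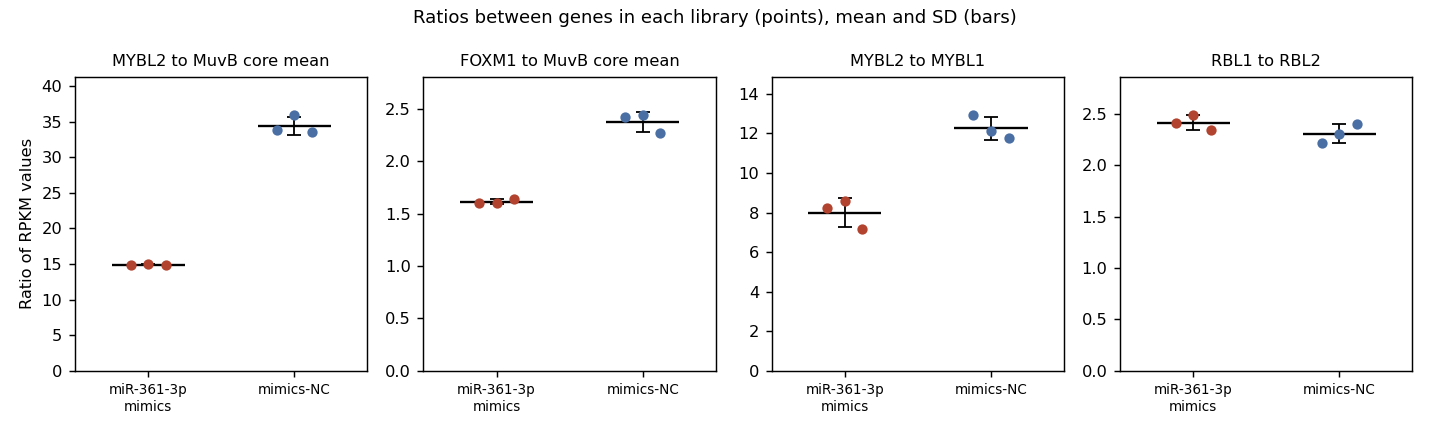
Ratios of RPKM values within each library, with miR-361-3p mimics on the left and mimics-NC on the right; points are libraries, lines are means and bars are SDs. The ratio of MYBL2 to the MuvB core mean averages 14.9 with the mimics and 34.4 with mimics-NC, while the ratios of RBL1 to RBL2 overlap.

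The order of the levels changed with the mimics below the first place. MYBL2 made up 58.5% ± 0.595 of the summed RPKM of the 10 genes with the mimics and 74.1% ± 0.362 with mimics-NC (SD, n = 3 each). With the mimics RBBP4 came second, followed by MYBL1, FOXM1, RBL1, LIN54, LIN9, RBL2, LIN52 and LIN37. With mimics-NC MYBL1 and FOXM1 stood above RBBP4, and then came RBL1, LIN54, LIN9, LIN52, RBL2 and LIN37. With the mimics LIN9 and RBL2, and RBL2 and LIN52, had overlapping ranges, as LIN54 and LIN9 did with mimics-NC, and the other neighbours in each order were apart. RPKM divides by the length of all annotated exons, so a gene with exons outside its main transcript can read lower than that transcript. For LIN37 this length was 2820 bases, against 1150 in the longest complete protein-coding transcript searched above. For RBBP4 it was 9470 against 7943 bases, and for MYBL2 2777 against 2704.

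Among 17 partners, paralogs and regulators of these complexes, 15 were tested. By limma 4 of the 15 fell and 0 rose, with 1 higher at an unadjusted p under 0.05, while 9.85% of all genes tested were lower. Of the 4, E2F4 and CDK2 lost their calls under some settings, as given below. The gene that was higher, HDAC1, a deacetylase, rose by voom (adjusted p = 0.0340) and not by limma (adjusted p = 0.0941), and it was named after its values were seen. The list's median log2 fold change was -0.06. TFDP1, the DP1 partner of E2F factors, measured 10.7, 11.1 and 10.1 RPKM in the mimic libraries, against 15.6, 15.5 and 15.2 RPKM in the mimics-NC libraries. This was a clear gap, with a log2 fold change of -0.52 ± 0.0430 (SE). CCNF, cyclin F, which binds B-MYB and curbs its activity, measured 0.928, 1.02 and 0.957 RPKM with the mimics, against 1.68, 1.68 and 1.59 RPKM with mimics-NC.

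E2F4, the main E2F of DREAM, measured 8.22, 6.97 and 7.34 RPKM in the mimic libraries, against 9.73, 9.35 and 8.89 RPKM in the mimics-NC libraries. Its call (log2 fold change -0.30, adjusted p = 0.0202 by limma) was lost without mimic replicate 2 or 3 or mimics-NC replicate 1 or 2, with adjusted p of 0.0540 to 0.0647. The E2F4 call was also lost with no filter on low values (adjusted p = 0.0652 by limma). CDK2, the cyclin-dependent kinase of S phase that phosphorylates B-MYB, measured 20.5 ± 1.01 RPKM with the mimics and 23.8 ± 1.39 RPKM with mimics-NC (SD, n = 3 each). Its call (adjusted p = 0.0386) was lost without mimic replicate 1 or 2 or mimics-NC replicate 2 or 3, with adjusted p of 0.0913 to 0.116. The CDK2 call was also lost by limma with no filter on low values (adjusted p = 0.107) and with no intensity trend (adjusted p = 0.0568). The other 11 tested genes of the list did not pass, with log2 differences between -0.105 for TFDP2, a DP protein, and 0.13 for CDK4, a kinase of G1, both named after their values were seen. MYB, the founding member of the family, averaged 0.182 RPKM with the mimics and 0.105 RPKM with mimics-NC. CDKN1A, the p21 inhibitor through which p53 engages DREAM, averaged 0.212 RPKM with the mimics and 0.207 RPKM with mimics-NC. Both were under the filter and were not tested.

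Genes known as late cell cycle targets of MuvB with B-MYB or FOXM1 were lower almost throughout. Of 40 such G2/M genes, 38 fell and 0 rose by limma (0 higher at an unadjusted p under 0.05 and 0 by voom). Of all genes tested, 9.85% were lower. The median log2 fold change of the list was -0.54, against 0.01 for all genes tested. The list was written with the fall of mitotic genes in these libraries already known, and it is not independent evidence of their direction. KIF20A, a mitotic kinesin, measured 10.6, 10.1 and 10.3 RPKM in the mimic libraries, against 18.5, 17.6 and 18.6 RPKM in the mimics-NC libraries. CDCA3, a mitotic entry factor, measured 1.49, 1.56 and 1.53 RPKM with the mimics, against 2.78, 2.68 and 2.52 RPKM with mimics-NC. For both genes the groups were far apart, as they were for the proliferation marker MKI67 (log2 fold change -0.73) and the topoisomerase TOP2A (-0.66). The 2 genes that did not pass were GAS2L3, a cytoskeletal protein of cytokinesis, at 6.01 ± 0.494 with the mimics and 6.48 ± 0.260 RPKM with mimics-NC, and CKS2, a small CDK-binding protein, at 41.8 ± 3.93 with the mimics and 45.2 ± 2.96 RPKM with mimics-NC (SD, n = 3 each). Both were named after their values were seen.

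The early cell cycle genes, which E2F factors activate and DREAM represses, were lower by a smaller amount. Of 28 such G1/S genes, 25 fell and 0 rose by limma (0 higher at an unadjusted p under 0.05 and 0 by voom). The share lower among all genes tested was 9.85%. The list's median was -0.34, against 0.01 for all genes tested. This list too was chosen with earlier results of these data known, and it is not independent evidence of direction. CCNE1, cyclin E1, gave -1.01 ± 0.0460, UHRF1, which maintains DNA methylation, -0.69 ± 0.0375, and TYMS, thymidylate synthase, -0.62 ± 0.0402 (log2 fold change, SE). GINS1, of the replicative helicase, measured 4.76, 3.85 and 4.50 RPKM in the mimic libraries, against 6.37, 6.37 and 6.87 RPKM in the mimics-NC libraries. The 3 genes that did not pass, named after their values were seen, were CCNE2 (-0.22), CDT1 (-0.29) and MCM3 (-0.10). RBL1, which belongs to the same class of E2F-driven genes, gave the value of 0.04 described above. The difference between the medians of the lists was not tested. A 3' UTR seed match of miR-361-3p was present in 12.5% of the 40 G2/M genes and 10.7% of the 28 G1/S genes, against 25.4% of the protein-coding genes tested. In the coding sequence it was present in 2.5% of the G2/M genes and 28.6% of the G1/S genes, against 24.5% of those genes.

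**Figure D4:**
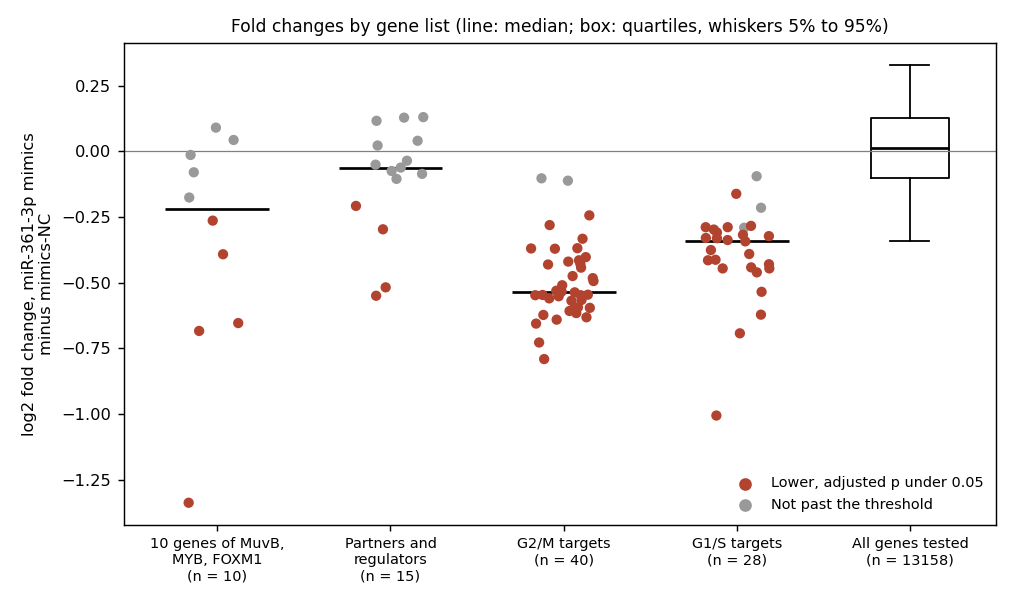
Log2 fold change, miR-361-3p mimics minus mimics-NC, of the 10 genes, of 15 partners and regulators, of 40 G2/M targets and of 28 G1/S targets (points; red past an adjusted p of 0.05 as lower, grey not), with list medians as lines and all 13158 genes tested as a box with 5% to 95% whiskers. The colours of MYBL2 and FOXM1 are not read as a test. The medians are -0.22, -0.06, -0.54 and -0.34, and 0.01 for all genes.

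Likeness to the 2 factors was measured over the 6 libraries as the Euclidean distance between log2 values centred on each gene's own mean. The 5 genes nearest to MYBL2 were SOAT1, which esterifies cholesterol, CCNE1, the endophilin SH3GL1, the mitochondrial transporter ABCB10 and the kinetochore protein NUF2, at distances of 0.183 to 0.536. MYBL2 had few near neighbours: SOAT1 gave a log2 fold change of -1.46 and the other 4 lay at -1.01 to -0.92. The 5 genes nearest to FOXM1 were THG1L, which modifies transfer RNA, DEPDC1B, the ubiquitin ligase adaptor NDFIP1, AGPAT5, an acyltransferase of phospholipid synthesis, and ESPL1, the separase that cuts cohesin. Their distances of 0.0631 to 0.111 were smaller than any of those to MYBL2. THG1L, the nearest, measured 4.46 ± 0.226 RPKM with the mimics and 7.39 ± 0.386 RPKM with mimics-NC (SD, n = 3 each). These distances largely restate the difference between the 2 groups and carry no test.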

How the data were processed

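The authors deposited 1 table of RPKM for 33707 genes in 6 libraries (3 with miR-361-3p mimics, 3 with mimics-NC), with each gene's length in bases, a quantity of another kind, and its exons on GRCh38. The tool names edgeR 3.12.1, Subread 1.5.1, featureCounts and Trimmomatic 0.36 are listed in the submitters' processing notes. The library kit was stranded, per the labels' protocols; which strand setting, aligner and annotation were used is not given in the sources. RPKM times length summed to 1000000 in every library. Scaling these products gave back whole reads: 100% came within 0.01 of an integer. Replicates of a group differed beyond sampling noise (chi-square over its degrees of freedom 4.15 to 9.38), so none was counted as a repeat.

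The 13158 genes that averaged 1 RPKM or more were fitted as log2(RPKM + 0.5), without covariates, by limma 3.58.1 (R 4.3.3); variances were moderated toward an intensity trend. The script was tested on simulated data. The tests were two-sided, with Benjamini-Hochberg adjustment over all genes tested; "rose" and "fell" mean an adjusted p under 0.05. The added 0.5 draws fold changes of low genes toward 0. For single values, 3 libraries against 3 cannot give an exact permutation p below 0.10, so ratios carry no test. Alternatives changed the pseudocount, the filter, the scaling, the trend, the test (voom on recovered reads), the replicate block and the libraries included.

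Named genes are the 10 members, the 4 largest changes past the threshold in each list, the 5 nearest profiles of MYBL2 and FOXM1, and genes that share exon bases with a member. Other genes were named outside this rule after their values were seen: HDAC1, TFDP2 and CDK4, the genes of the target lists that did not pass, the untested MYB and CDKN1A, and the markers TTR, AFP, CD68 and PECAM1. The members, lists and rules were chosen with earlier results of these data known. Sequences come from RefSeq tables (GRCh38.p14) and GENCODE 29 transcripts (GRCh38).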

Additional observations from a re-analysis of the deposited data

How the results depend on the processing

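All 15 alternatives were run. With 1 library left out, the log2 fold change was -1.37 to -1.32 for MYBL2 and -0.69 to -0.62 for FOXM1, given as values, and -0.74 to -0.62 for MYBL1, which fell under every alternative; 0 members rose under any. Members past the threshold as lower were 3 to 5 with 1 library left out and 3 with no filter on low values. With a filter of 5 RPKM, where 934 of all 6636 genes tested fell, the member count was also 3. LIN9, LIN52, LIN37, LIN54 and RBL2 are not tested there. MYBL2 and FOXM1, whose values led to the choice of the set, are in each of these member counts and are not read as tested. Where the count was 3, MYBL1 was the only other gene. With no filter LIN9 (-0.39, adjusted p = 0.0931) and LIN52 (-0.26, adjusted p = 0.0639) did not pass, and the cause was not tested. With 1 library left out LIN9 lay between -0.45 and -0.31, LIN52 between -0.30 and -0.24 and RBL2 between -0.029 and 0.009, the last changing sign without mimic replicate 2 (0.003) and without mimics-NC replicate 1 (0.009); the cause was not tested. Of the partners, 2 to 3 fell with 1 library left out and 2 with no filter, and 1 rose by voom. The G2/M count was 35 to 38 and the G1/S count 23 to 27 under the alternatives. The G2/M count of 35 came with the filter of 5 RPKM, where CDCA3 and other low genes of the list are not tested. With no filter, 846 of the 33707 genes then tested fell and 870 rose. Among the 13158 genes of the main filter, 895 to 1193 rose with 1 library left out, and 1756 fell and 2065 rose by voom. The replicate numbers do not pair the libraries: same-numbered libraries deviated together with correlations of -0.0524, -0.0159 and 0.0235, and not every library correlated best with its own number. With the replicate block 5 members were past the threshold as lower, again counting MYBL2 and FOXM1. In that fit 942 of all genes fell and 1034 rose. Of 178 values of the 12 named list genes, 11 lost their call, for CDK2 and E2F4, and 0 changed sign. The 36 ratio values were compared with a spread that dropping 1 library of 3 cannot exceed, so that comparison could not flag any. As values, with 1 library left out, the log2 of mimics over mimics-NC was -1.22 to -1.17 for MYBL2 to the core mean. For RBL1 to RBL2 it was 0.035 to 0.092.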
